A study of Homo sapiens with 8 samples.

Results

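Small nuclear, nucleolar and Cajal body RNAs are short non-coding RNAs that work inside nuclear ribonucleoproteins. The members described here are the rows of the authors' deposited table of translation efficiency that are named SNORA, SNORD, SCARNA or RNU, or that carry the type word of such an RNA in place of a name. They make up 36 of 12109 rows: 13 box H/ACA RNAs, 15 box C/D RNAs, 4 Cajal body RNAs and 4 spliceosomal RNAs. The cells were human hepatic stellate cells, the matrix-producing cells of the liver, labelled as a cell line named HSCs and grown in DMEM with serum. Control cells (genotype WT) were treated with dsi-control, and cells of genotype LARP6 kd, a knockdown of the RNA-binding protein LARP6, with dsiLARP6. RNA-seq and ribosome profiling were each done on 2 control and 2 knockdown libraries, 8 in all. The labels do not say that paired libraries came from separate cultures, and the sources used here do not describe the line further.

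Each row gives footprints relative to RNA, called translation efficiency, as a log2 change of the knockdown over the control. Footprints are the RNA pieces left after cycloheximide, which halts ribosomes, RNase I digestion and pelleting of ribosomes. The table compares whole groups, so no value per library, standard error or sequencing depth stands behind any row. A higher ratio can mean more protected fragments or less RNA in the RNA-seq libraries, and these cannot be told apart here. Nor can fewer cells of a kind be told from less RNA per cell. The table gives a log2 efficiency for knockdown cells alone. A control value was derived by subtracting from it the change that the second of the authors' 2 methods gives. Both levels are relative to the typical row. Of 15 listed stellate cell markers, 12 have a row here, among them the collagen genes and smooth muscle actin, and DES, LRAT and RGS5 have none. Some hepatocyte (2 of 4), endothelial (1 of 3) and leukocyte (2 of 3) markers have a row too, and a row shows only that the gene was measured. LARP6 itself had a log2 change of 0.07, uncalled, by the authors' deposited table; a ratio does not show how far its RNA was lowered, so the knockdown was not checked here.

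Box C/D RNAs guide methylation of ribose, with the enzyme fibrillarin. Box H/ACA RNAs guide conversion of uridine to pseudouridine, with the enzyme dyskerin. Most targets of both are in ribosomal RNA, and a few members of each class serve in ribosomal RNA cleavage instead. Small Cajal body RNAs guide the same modifications on spliceosomal RNAs. In human cells most of the guides are cut from introns of a host transcript. Spliceosomal RNAs such as U5 have their own promoters and form the core of the machinery that removes introns. None of these RNAs is translated, so their ratio of footprints to RNA is not a translation rate.

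Most of these RNAs had high ratios in both conditions, and most had higher ratios after LARP6 knockdown. In control cells 22 of the 36 rows were in the top 5% of the table, and in knockdown cells 34 were. The authors' deposited table lists 31 of the 36 rows above 0, against 50.8% of all rows, with a median log2 change of 2.67, against 0.02 for the whole table. At least a 2-fold higher ratio was listed for 26 members (72.2%, against 4.81% of all rows) and at least a 2-fold lower ratio for 3 members (8.33%, against 5.77% of all rows) in the authors' deposited table. At the threshold used here, an adjusted p of 0.05, 5 members rose and 0 fell by the authors' deposited values. The background is 2.2% of all rows called in either direction and 1.07% called higher. The members that rose were SNORA73B, SNORA73A, RNU5B-1, RNU5A-1 and SNORD10. The SNORA73 rows are copies of 1 family and the RNU5 rows of another. Copies could share reads, so the 5 calls may not be separate. An unadjusted final p under 0.05 was listed for 14 members, 13 of them higher, against 10.3% of all rows in the authors' deposited table.

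The upper end of the whole table consists largely of these RNAs. All 7 rows of the authors' deposited table with a log2 change of at least 4 are members, as are 11 of the 17 rows with at least 3 and 21 of the 76 rows with at least 2. Members hold 9 of the 10 highest log2 changes. Repeated rows enter these counts, since 36 rows hold 34 distinct sets of values.

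**Figure D1:**
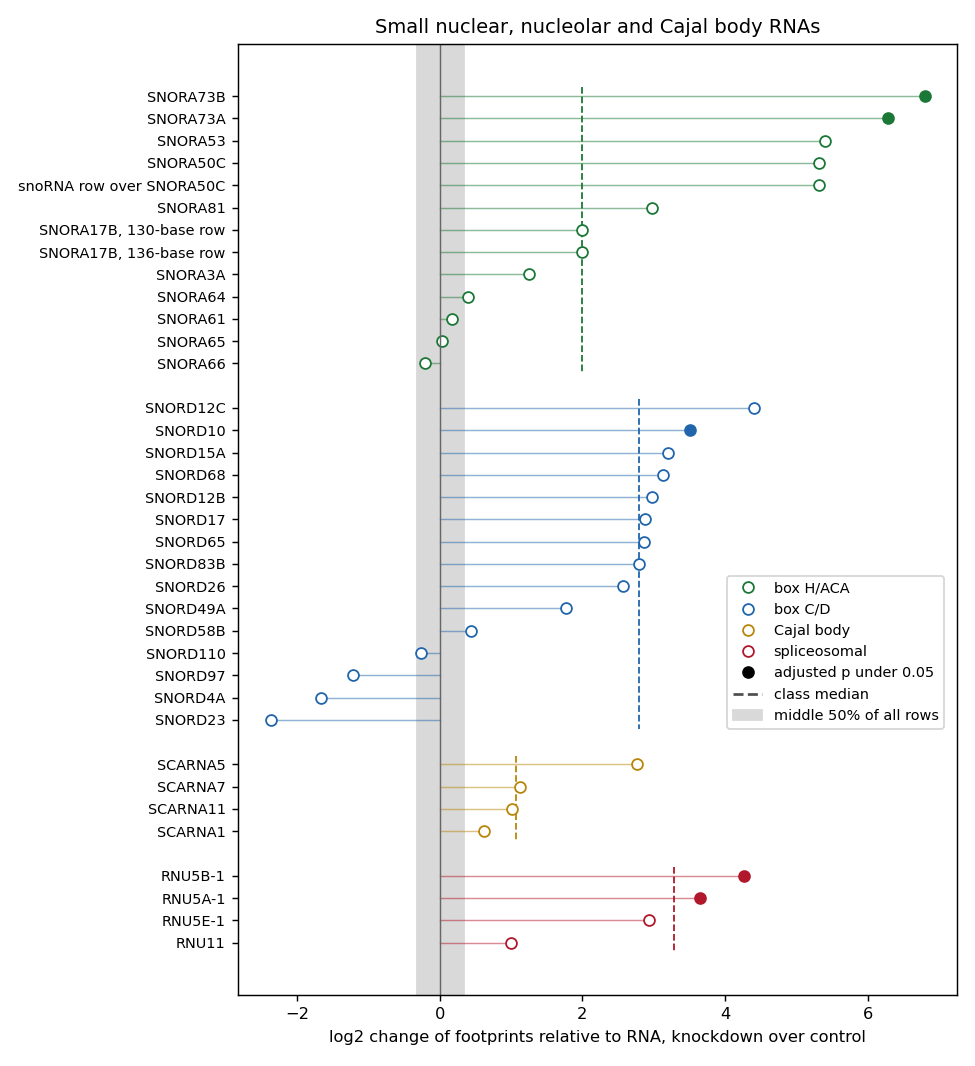
Log2 change of footprints relative to RNA (knockdown over control, x axis) for each of the 36 rows, grouped by class; filled points passed an adjusted p of 0.05, dashed lines are class medians and the grey band is the middle 50% of all rows. Of the 36 points 31 lie to the right of 0, and the 5 filled points are SNORA73B, SNORA73A, SNORD10, RNU5B-1 and RNU5A-1.

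The 2 largest changes belong to SNORA73B and SNORA73A, near-identical copies of the box H/ACA RNA also known as E1, which acts in early cleavage of the precursor of small-subunit ribosomal RNA. Their GENCODE transcript sequences (GRCh38, chr1:28508559-28508762, plus strand, and chr1:28507366-28507571, plus strand) are shown because they share most of their length and so could share reads. Capitals mark the ACA box near the 3′ end.
SNORA73B: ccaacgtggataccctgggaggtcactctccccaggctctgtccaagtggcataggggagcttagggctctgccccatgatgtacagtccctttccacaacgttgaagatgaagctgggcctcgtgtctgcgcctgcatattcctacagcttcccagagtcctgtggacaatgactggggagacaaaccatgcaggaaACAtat
SNORA73A: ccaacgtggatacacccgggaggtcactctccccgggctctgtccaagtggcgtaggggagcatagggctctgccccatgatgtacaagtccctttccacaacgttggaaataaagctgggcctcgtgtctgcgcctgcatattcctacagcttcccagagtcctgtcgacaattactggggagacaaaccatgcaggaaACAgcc
The copies are identical at 192 of 206 aligned positions (93.2%), with an unbroken shared run of 54 bases. The assignment of reads that fit both copies is not described, so each copy's value is uncertain.

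In the authors' deposited table SNORA73B had a log2 efficiency of 7.09 in the knockdown, against 0.29 derived for the control. It rose by 6.80 on the log2 scale, or 112-fold, with an adjusted p of 1.2e-09. SNORA73A rose by 6.28 in the authors' deposited table (adjusted p = 1.1e-08), from a derived control efficiency of 0.98 to 7.26 in the knockdown. Among all rows, SNORA73B was at percentile 60.8 in control cells and 99.87 in knockdown cells. For SNORA73A these percentiles were 82.9 and 99.89, so both copies moved from within the bulk of the table to its upper edge.

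No other box H/ACA row was called. SNORA53 and SNORA50C come next in size, and their sequences (GRCh38, chr12:98599635-98599883, plus strand, and chr17:64146339-64146471, plus strand) are shown as those of the largest uncalled changes of the class. Capitals again mark the ACA box.
SNORA53: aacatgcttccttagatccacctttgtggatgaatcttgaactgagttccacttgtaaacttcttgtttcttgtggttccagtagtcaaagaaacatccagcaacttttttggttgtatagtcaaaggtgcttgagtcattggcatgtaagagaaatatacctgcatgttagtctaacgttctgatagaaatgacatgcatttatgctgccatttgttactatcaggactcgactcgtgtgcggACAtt
SNORA50C: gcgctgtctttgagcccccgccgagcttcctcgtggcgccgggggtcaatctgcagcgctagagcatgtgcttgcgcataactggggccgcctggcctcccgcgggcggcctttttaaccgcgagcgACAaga
In the authors' deposited table SNORA53 had a log2 change of 5.40 with an adjusted p of 0.17, between a derived control efficiency of 2.77 and a knockdown efficiency of 8.23. Among the members, that is the highest knockdown efficiency. SNORA50C had a change of 5.32 (adjusted p = 0.29, the authors' deposited table), between 0.53 and 5.98. A second row, named only by its type, covers SNORA50C with 2 more bases at one end and repeats its values exactly.

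The other rows of the class had smaller changes. SNORA81 had a log2 change of 2.98 (adjusted p = 0.41, the authors' deposited table), with efficiencies of 5.21 in the control and 8.18 in the knockdown. SNORA17B is listed on 2 rows with the same values, a change of 2.0 (adjusted p = 0.94, the authors' deposited table), for transcripts of 130 and 136 bases. SNORA3A had a change of 1.24 (adjusted p = 0.91, the authors' deposited table). The remaining members lay close to 0 in the authors' deposited table, with 0.39 for SNORA64, 0.17 for SNORA61, 0.03 for SNORA65 and −0.20 for SNORA66. Of these, SNORA64 and SNORA66 had derived control efficiencies of 6.24 and 5.95, among the highest of all members. Low control efficiency and a large change went together in SNORA73A, SNORA73B and SNORA50C but not in SNORA3A, whose derived control efficiency was 0.98. Nor did they in SNORA53, where a change of 5.40 stood beside a derived control efficiency of 2.77. The control value is derived by subtracting the change, so such a link partly restates the change.

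Among box C/D RNAs, SNORD10 rose. It guides methylation of the U6 spliceosomal RNA, unlike most of its class. Its sequence (GRCh38, chr17:7576811-7576952, plus strand) is shown with those of SNORD12C, the class's largest change (chr20:49278940-49279028, plus strand), and SNORD23, its lowest (chr19:47755853-47755962, plus strand). Capitals mark the first C box (TGATGA), where one is found, and the last D box (CTGA).
SNORD10: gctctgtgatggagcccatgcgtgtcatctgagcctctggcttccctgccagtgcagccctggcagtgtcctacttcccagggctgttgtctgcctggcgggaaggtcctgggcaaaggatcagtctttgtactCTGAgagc
SNORD12C: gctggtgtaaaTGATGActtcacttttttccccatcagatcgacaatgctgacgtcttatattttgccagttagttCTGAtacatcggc
SNORD23: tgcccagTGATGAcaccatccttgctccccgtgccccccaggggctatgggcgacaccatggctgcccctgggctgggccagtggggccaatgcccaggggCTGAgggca
In the authors' deposited table SNORD10 rose by 3.51 on the log2 scale (adjusted p = 0.014), from a derived control efficiency of 0.02 to 3.56 in the knockdown. SNORD12C had a change of 4.41 (adjusted p = 0.34, the authors' deposited table), between 1.59 and 6.07. Its neighbour SNORD12B, in the same host gene and 74.2% identical over 93 aligned positions, had a change of 2.97 (adjusted p = 0.77, the authors' deposited table). The larger of these changes thus carries no call, while the smaller one of SNORD10 does.

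A group of box C/D members lay close together between 2 and 4 on the log2 scale without a call. In the authors' deposited table these were SNORD15A at 3.20 (adjusted p = 0.63), SNORD68 at 3.13 (0.66), SNORD17 at 2.87 (0.085), SNORD65 at 2.86 (0.69), SNORD83B at 2.80 (0.45) and SNORD26 at 2.58 (0.79). SNORD17, of 237 bases the longest of the class, came nearest to the threshold. SNORD49A had a change of 1.77 and SNORD58B one of 0.44 in the authors' deposited table, neither called.

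The 4 members of this class below 0 were also uncalled. SNORD23 had a log2 change of −2.37 (adjusted p = 0.38, the authors' deposited table) and was the member with the highest derived control efficiency, 7.81, against 5.44 in the knockdown. SNORD4A had −1.66 (adjusted p = 0.91), SNORD97 −1.22 (0.89) and SNORD110 −0.26 (0.98) in the authors' deposited table. All 4 had derived control efficiencies between 2.72 and 7.81, above the class median of 2.05.

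The 4 Cajal body RNAs all lay above 0, against 50.8% of all rows, and 0 were called, against 2.2% of all rows. In the authors' deposited table the changes were 2.76 for SCARNA5, 1.13 for SCARNA7, 1.01 for SCARNA11 and 0.62 for SCARNA1, with adjusted p from 0.91 to 1. No member of this class reached an unadjusted final p of 0.05 in the authors' deposited table. SCARNA11 was high in both conditions, with a derived control efficiency of 7.01 and a knockdown efficiency of 7.93.

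Spliceosomal RNAs were represented by 3 variants of U5 and by U11. U5 holds the ends of both exons in place during splicing, and U11 recognises the start of the rare introns that the minor spliceosome removes. The other spliceosomal RNAs were not analysed here. The sequence of RNU11 (GRCh38, chr1:28648600-28648733, plus strand) is shown as that of the member with the lowest levels. Capitals mark the site for the Sm protein ring (ATTTTTTG).
RNU11: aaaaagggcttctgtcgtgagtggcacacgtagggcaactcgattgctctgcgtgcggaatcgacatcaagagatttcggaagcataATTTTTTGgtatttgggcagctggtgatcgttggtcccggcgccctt
The U5 variants were treated as copies of the same family. The assignment of reads that fit several of them is not described, so each variant's value is uncertain.

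RNU5B-1 rose by 4.27 on the log2 scale (adjusted p = 0.0032, the authors' deposited table), with a derived control efficiency of 3.17 and a knockdown efficiency of 7.43. RNU5A-1 rose by 3.64 (adjusted p = 0.0027, the authors' deposited table), between 3.43 and 7.06. RNU5E-1 had a change of 2.93 (adjusted p = 0.16, the authors' deposited table) and lower levels, 0.67 in the control and 3.61 in the knockdown. Whether the variants differ from each other was not tested, since no value per library is given. RNU11 stood apart with a change of 1.00 (adjusted p = 0.97, the authors' deposited table). Its efficiencies of −1.52 and −0.52 make it the member that lay below the typical row in both conditions.

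Side by side, the classes overlapped widely. Median log2 changes in the authors' deposited table were 3.29 for the 4 spliceosomal RNAs, 2.80 for the 15 box C/D rows, 2.0 for the 13 box H/ACA rows and 1.07 for the 4 Cajal body RNAs. With 1 value per family of copies, the spliceosomal median (2.31, 2 families) lay below that of box C/D (2.69, 14 families). Box H/ACA rows ranged from −0.20 to 6.80 and box C/D rows from −2.37 to 4.41 in the authors' deposited table. Calls numbered 2 of 13 for box H/ACA, 1 of 15 for box C/D, 0 of 4 for Cajal body and 2 of 4 for spliceosomal RNAs. Over all rows 2.2% were called in either direction, 1.07% were called higher and 4.81% were at least 2-fold higher. With 4 rows in a class, 0 calls do not set it apart from that background. At least 2-fold higher ratios were listed for 9 of 13 box H/ACA, 10 of 15 box C/D, 3 of 4 Cajal body and 4 of 4 spliceosomal rows in the authors' deposited table. No test of class against class was made, because members are not replicates of a condition.

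**Figure D2:**
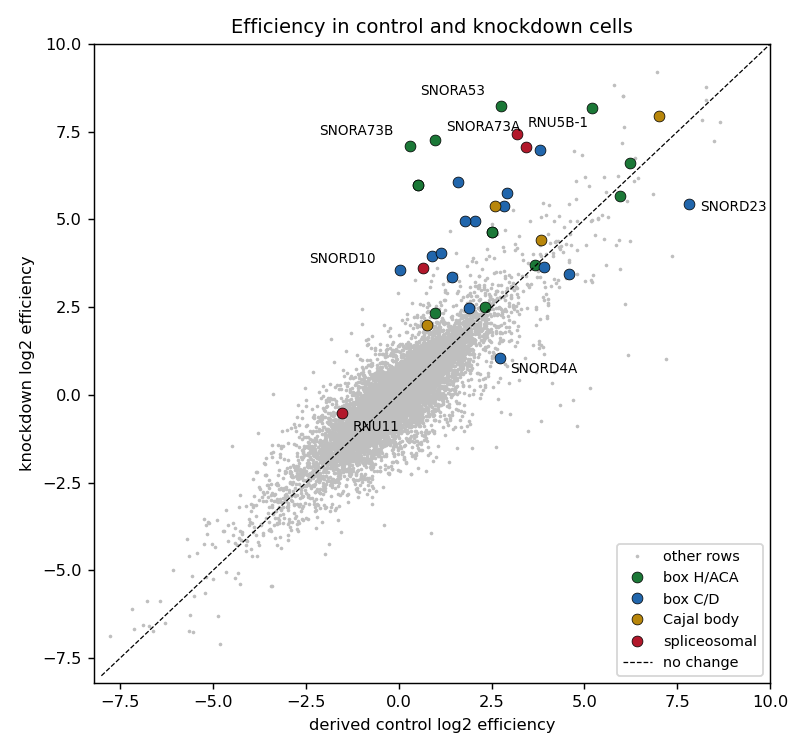
Knockdown log2 efficiency (y axis) against derived control log2 efficiency (x axis) for all 12109 rows, with members coloured by class and the dashed line at no change. Members lie above 0 in knockdown cells except RNU11, and above the line except SNORA66, SNORD110, SNORD97, SNORD4A and SNORD23.

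Levels were already high in control cells for most members. In control cells the members had a median derived log2 efficiency of 2.51 in contrast to 0.0025 for all rows, and 22 of the 36 were in the top 5% of the table. In knockdown cells the median was 4.95 against 0.0078, and 34 of the 36 were in the top 5% of the authors' deposited table, the exceptions being RNU11 and SNORD4A. By class, the median knockdown efficiency was 5.98 for box H/ACA, 4.04 for box C/D, 4.90 for Cajal body and 5.33 for spliceosomal RNAs. Across the 34 distinct members the log2 change had a Pearson correlation of −0.50 with the derived control efficiency (Spearman −0.47) and of 0.55 with the knockdown efficiency (Spearman 0.57). The change is the difference of these levels, so both correlations partly restate it. Correlations with length (0.27, Spearman 0.25) and GC content (−0.01, Spearman −0.03) were weak, and all come from the same 8 libraries.

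Other rows for short transcripts had a median change nearer to 0. Another 83 rows are annotated with transcripts no longer than 330 bases, the length of the longest member. High levels were common among them too. In control cells 27 of the 83 were in the top 5% of the table, and in knockdown cells 29 were. Their median derived control efficiency was 1.21. The log2 changes of the 83 ranged from −6.39, the lowest of the whole table, to 3.44. That highest value is of SNHG25, whose exon holds SNORA50C. MIR1248, which overlaps SNORA81, and a non-coding row that repeats RNU11 are also among the 83. The comparison is thus not free of member sequence. By the authors' deposited table the median log2 change of the 83 rows was 0.09. At least 2-fold higher were 19.3% of them against 72.2% of members, and 14.5% were at least 2-fold lower against 8.33% of members. Their median knockdown efficiency was 1.26. The 27 rows annotated as other small non-coding RNAs had a median change of 0.27 in the authors' deposited table, 7 of them at least 2-fold higher and 5 at least 2-fold lower. Most of these rows are also among the 83, and the 27 hold 26 distinct sets of values. The repeat is RN7SK, whose values a second 7SK row shares, and both rows count among the 5 lower. Of the 27 rows 0 rose and 1 fell, MT-TL1, a mitochondrial transfer RNA with a log2 change of −2.58 (adjusted p = 0.011, the authors' deposited table). That 1 call compares with 2.2% of all rows called, so it does not stand apart from the background. The highest of the 27 was RN7SL471P, a pseudogene of the signal recognition particle RNA, at 3.05 (adjusted p = 0.061) by the authors' deposited table. Among these, chosen after their values were seen, the RNA of RNase P, RPPH1, had a change of 2.50 (adjusted p = 0.15) and the RNA of RNase MRP, RMRP, one of 2.21 (adjusted p = 0.17, the authors' deposited table). RN7SK, a nuclear RNA that restrains a transcription elongation kinase, had a log2 change of −1.26 and was uncalled by the authors' deposited table. No test of members against these rows was made.

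Of the motifs searched, the C box and the ACA box differed most in count between the guide classes, and the D box and H box less. The C box letters TGATGA occur on the transcript strand in 11 of 15 box C/D rows and 0 of 13 box H/ACA rows, and in 1.73% of 10559 windows made of the first 131 bases of protein-coding rows. An ACA with 2 to 4 bases after it ends 12 of 13 box H/ACA rows, 1 of 15 box C/D rows and 2.68% of such windows. CTGA, the D box, is common, in 14 of 15 box C/D rows, 7 of 13 box H/ACA rows and 41.1% of windows. The H box ANANNA, where N is any base, was found in 13 of 13 box H/ACA rows, 14 of 15 box C/D rows and 46.8% of windows, so these letters do not separate the classes. Only the transcript strand was searched, motifs may overlap, and a match is no more than a description.

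Most members lie inside another gene, and their values were compared with those of the host transcript. On the same strand, 32 of 35 distinct member names lie within another annotated gene, and RNU5A-1, RNU5B-1 and RNU11 do not. The authors' deposited table has a row for a host of 22 of these names. For 19 of them the member lies in an intron of the host's row, where the spliced host would not share its sequence. In 15 of the 19 the member had the higher log2 change and in 4 the lower. The median was 2.76 for the members and 0.33 for their 20 hosts in the authors' deposited table.

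The SNORA73 copies lie in introns of the row of SNHG3, a non-coding host, which had a log2 change of −1.09 (adjusted p = 0.94) and a knockdown efficiency of −3.53 in the authors' deposited table. Both copies also lie in introns of RCC1, which has no row. Of 3 annotated SNHG3 transcripts that span SNORA73A, 1 has an exon over it. SNORD10 lies in an intron of EIF4A1, which encodes an RNA helicase of translation initiation and had a change of 0.33 (adjusted p = 0.93, the authors' deposited table). It also lies in introns of the read-through SENP3-EIF4A1, at 0.30 (adjusted p = 0.88), and of the non-coding transcript AC016876.2, which rose by 1.29 (adjusted p = 3.1e-24, the authors' deposited table). SNORA53 in the phosphate carrier gene SLC25A3 (0.10) and SNORD12C in ZFAS1 (0.03) lie likewise in hosts near 0 in the authors' deposited table. The pairs in which the host was higher in the authors' deposited table were SNORA64 in the ribosomal protein gene RPS2 (2.70, adjusted p = 0.40), SNORD23 in the ribosome assembly gene NOP53 (1.64, 0.42), SNORD110 in NOP56 (0.54, 0.31) and SNORD97 in EIF4G2 (−0.19, 0.63). NOP56 itself is a core protein of box C/D particles.

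**Figure D3:**
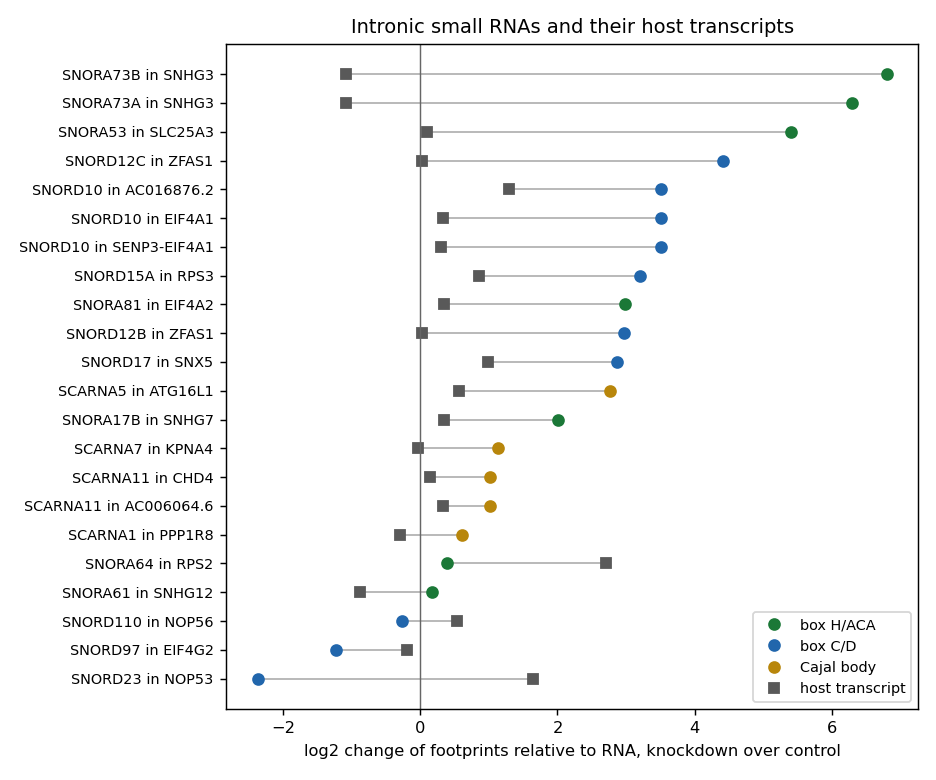
Log2 change of footprints relative to RNA (x axis) for members that lie in an intron of a host row (circles, coloured by class) and for that host row (grey squares), one line per pair. The circle lies to the right of the square for 15 of 19 members and to the left for SNORA64, SNORD110, SNORD97 and SNORD23.

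A few members share exonic sequence with other rows. SNORA50C lies within an exon of SNHG25, a short host transcript that rose by 3.44 (adjusted p = 0.040, the authors' deposited table), so these rows can share reads. MIR1248, a microRNA precursor that overlaps SNORA81 over 103 bases, had a change of 2.97 (adjusted p = 0.67) and a knockdown efficiency of 8.82 in the authors' deposited table. RNU11 repeats all values of an overlapping non-coding row, and RNU5E-1 those of a non-coding row without annotation here. In all, 22 rows of the table share every value with another row, in 11 sets, of which 4 sets contain a member.

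The authors' 2 methods gave similar changes for these RNAs, and their p-values were far apart for some members and close for others. The final p is the larger of both, and for 32 of 36 members (88.9%) that is the p of method 1, in contrast to 18.6% of all rows. Adjusted over all rows, method 1 alone called 5 members (background 3.77% of all rows) and method 2 alone called 17 members (background 2.82% of all rows), 16 higher and 1 lower. Those 17 comprise 6 of 13 box H/ACA, 8 of 15 box C/D, 0 of 4 Cajal body and 3 of 4 spliceosomal rows. RNU5B-1 had a p of 4.03e-05 by method 1 and 1.47e-260 by method 2 in the authors' deposited table. SNORA53, uncalled in the final value, had 0.0066 and 5.18e-32, and SNORA81 had 0.0347 and 1.15e-31. The 1 lower call of method 2 was SNORD23, with p of 0.0295 and 1.75e-12 in the authors' deposited table. Both p-values were close for others, such as SNORA65 (0.913 by method 1 and 0.96 by method 2) and SNORD110 (0.669 and 0.731) in the authors' deposited table. Which method fits such RNAs better cannot be judged without values per library.

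**Figure D4:**
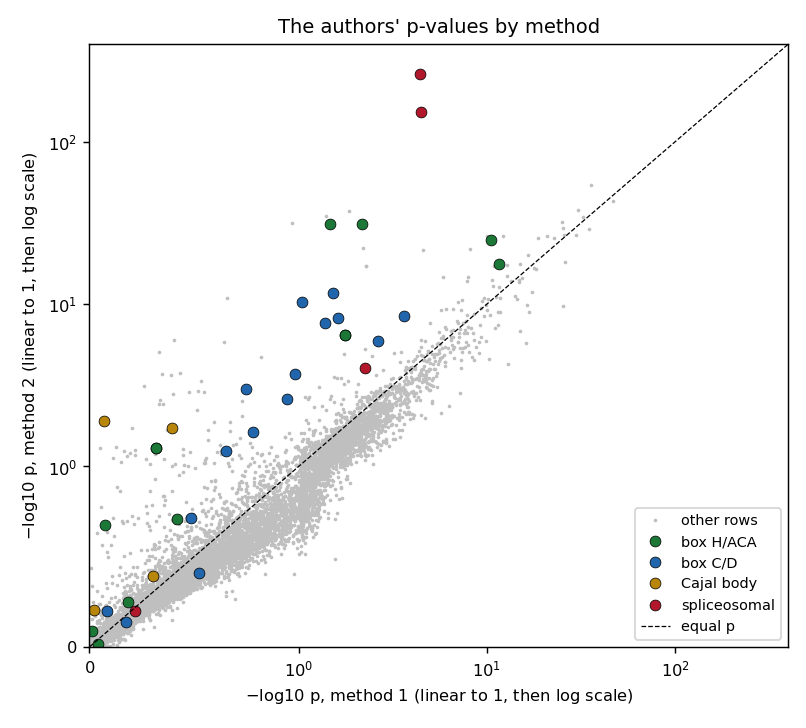
The authors' −log10 p by method 1 (x axis) and method 2 (y axis) for all rows, both axes linear up to 1 and on a log scale beyond, with members coloured by class and a dashed line at equal p. Most members lie above the line, and RNU5B-1 and RNU5A-1 are the 2 highest points.

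Messages for the proteins of these particles had log2 changes near 0. Of 68 listed proteins of small nucleolar and spliceosomal particles and of their assembly, 62 have a row, and their median log2 change was 0.09. Of these 0 rose and 1 fell, ZNHIT3, an assembly factor of box C/D particles with a log2 change of −1.38 (adjusted p = 0.045, the authors' deposited table). That 1 call compares with 2.2% of all rows called. An unadjusted final p under 0.05 was listed for 5 of the 62 (8.07%), against 10.3% of all rows in the authors' deposited table, so neither count stands above the background. The enzymes fibrillarin (FBL, 0.39, adjusted p = 0.69) and dyskerin (DKC1, 0.28, adjusted p = 0.91) were uncalled by the authors' deposited table.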

How the data were processed

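RNA-seq and ribosome profiling of control and LARP6 kd stellate cells gave 8 libraries in 4 groups of 2. Tools and builds named, per the submitters' processing notes, were Bowtie, cutadapt, GRCh38 and hg38; no version or role is stated. No source used here gives the size selection of footprints, the RNA selection, the treatment of reads with several map positions, the filters or the comparison program. Per the file headers, the authors deposited log2 changes of translation efficiency by 2 methods, a final log2 change, a knockdown log2 efficiency, and p-values, final and adjusted. In all 12109 rows the final p-value of the authors equals the larger method p-value (relative tolerance 1e-09), the final change is that of the same method, and the adjusted p is its Benjamini-Hochberg adjustment (tolerance 1e-09).

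Reads shared by repeated copies, and protected RNA pelleted in particles other than ribosomes, could both affect these ratios. Depth is unknown, so no interval can be given. The comparison program is not given, so how the p-values weigh the spread between samples is unknown. They rest on these samples alone, whose spread may be technical. The planned count model was not run, since the table holds no values per library.

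The last 6 digits of the transcript identifier in each row name were matched to GENCODE 29 (GRCh38): 11590 rows matched, with all 36 members, 35 of them under the same symbol. The row without a gene name was placed in the class of the member it overlaps. Coordinates, hosts and sequences come from that annotation; some sequences are not reported here. Scripts used Python 3.11.15, pandas 2.3.3, scipy 1.17.1 and Biopython 1.88 (global alignment), and the p-value adjustment was tested on simulated data. The members, classes and lists were chosen with earlier results of these data known. Named are all called members, the 5 highest and 5 lowest of each class, members with extreme efficiencies, copies of called families, spliceosomal and other RNAs of well known function, hosts of called members and called proteins; the remaining members are given to account for each. Other rows named were chosen after their values were seen. Alternatives were other thresholds, each method alone, other definitions of the members and 1 value per family.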

Additional observations from a re-analysis of the deposited data

How the results depend on the processing

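The number of members called in the authors' deposited table was 5 and stayed within 1.5 times of that at an adjusted p of 0.01 (4) or 0.1 (6), with a 2-fold minimum, by method 1 alone, by name prefixes alone and by annotated type. It was 17 by method 2 alone; the cause was not tested. The median log2 change of the members was between 2.58 and 2.67 under every alternative run. With 1 value per family of copies, class medians were 1.62 for box H/ACA (10 families), 2.69 for box C/D (14) and 2.31 for spliceosomal RNAs (2), by construction from fewer values, and the order of the last 2 classes turned. Cajal body RNAs kept 1.07. Each called member kept its direction and its call by either method. Counting repeated values once, an alternative added after seeing the data, left 5 calls and the median at 2.67. No paired analysis was possible because libraries have no values of their own in the deposited file, and leaving out replicates was not run for the same reason. Depth is unknown, so which members were too shallow to be called cannot be told.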
